A study of Danio rerio with 4 samples.

Results

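The genes described here are the long noncoding RNA genes that were expressed in adult zebrafish (Danio rerio) ventricular cardiomyocytes. They are the rows of the deposited table with the Ensembl biotype lincRNA or antisense and a mean normalized read count of at least 10 over the 4 libraries. The members were thus chosen by their normalized values, the same values that are compared below, and their level as such is a description. The rule gave 90 genes, 71 lincRNA and 19 antisense, out of 644 genes of these biotypes and 18105 genes in all. The tp1:EGFP+ group held cells sorted for both tp1:EGFP and myl7:DsRed2-NLS, 2000 cells in number, and the myl7:EGFP+ group held cells sorted for myl7:EGFP, 7000 cells in number. Each group had 2 libraries. Reporters with tp1 sites respond to Notch signalling, and the promoter of myl7, a myosin light chain gene, is active in cardiomyocytes. Both groups therefore carried a myl7-driven fluorescent protein, and the comparison sets cardiomyocytes with Notch reporter activity against those sorted by myl7 alone. The labels give no treatment, no age beyond adult and no number of pooled hearts, and they do not say whether the replicates came from separate animals. The p-values below therefore measure the spread between these samples only, which may be technical.

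Long noncoding RNAs are transcripts with no known protein product. The class names stand for RNAs from between protein-coding genes (lincRNA) and from the strand opposite a gene (antisense). Among the 90 genes the labels did not follow position throughout, since 5 lincRNA genes overlap a protein-coding gene in the file and 1 antisense gene overlaps none. Some act on genes beside them, some act in trans in the nucleus, and for most no function is known. MALAT1, an abundant nuclear transcript, gathers in nuclear speckles, where splicing factors are stored, and the transcript of oip5-as1, also known as cyrano, promotes the decay of a microRNA in mouse.

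The totals of the normalized values were 1660511 and 2041552 in the tp1:EGFP+ replicates 1 and 2, and 1552636 and 2130733 in the myl7:EGFP+ replicates 1 and 2. In replicate 2, 1 read was worth 2.98 in tp1:EGFP+ and 3.11 in myl7:EGFP+, which puts the depth at about 685085 and 685344 reads. In both replicate 1 libraries the value of a read was not resolved in the range searched, so their depth was not estimated here. Values of 1 occur in both, as for CR356233.1 in tp1:EGFP+ and AL929210.2 in myl7:EGFP+. A read was thus worth less, and depth was higher, in replicate 1 than in replicate 2 of both groups. The median gene of the 90 had a mean of 32, or 10.7 reads in tp1:EGFP+ replicate 2 and 10.3 reads in myl7:EGFP+ replicate 2, against a median mean of 63 over all 9921 genes with a mean of at least 10. Cardiomyocyte markers were high in every library, with summed values of 39909 and 73766 in tp1:EGFP+ and 39646 and 83746 in myl7:EGFP+. The titin row ttn.2 alone had 18845 and 23416 in tp1:EGFP+ and 18257 and 22692 in myl7:EGFP+. In every row of the list but ttn.1, both replicate 2 libraries were above both replicate 1 libraries. For myl7 the values were 765 and 3916 in tp1:EGFP+ and 565 and 4206 in myl7:EGFP+. Of the 10 rows 0 passed the test, which with this spread within groups does not show equal levels. In the mural and smooth muscle list 5 of 6 genes were higher in tp1:EGFP+ (sums of 2101 and 3980, against 182 and 158 in myl7:EGFP+), and myh11a and pdgfrb were listed at 0 in myl7:EGFP+. In the endothelial list 6 of 7 genes were lower and pecam1, listed at 0 in myl7:EGFP+, was higher (sums of 77 and 75, against 649 and 395), and tie1, fli1a and erg were listed at 0 in tp1:EGFP+. All 4 rows of the erythroid list were higher in tp1:EGFP+ (sums of 130 and 277, against 2 and 0). The epicardial and fibroblast list had sums of 90 and 114 in tp1:EGFP+ and 87 and 108 in myl7:EGFP+, with pdgfra higher among its 4 rows. The 3 leukocyte rows were at 0 in all 4 libraries. The part of other cell types in the differences below was not tested, and in bulk samples fewer cells of a type and less RNA per cell cannot be told apart.

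The 90 genes held a small share of the transcriptome. Their summed values were 9772 and 15354 in tp1:EGFP+, or 0.588% and 0.752% of the library, and 9257 and 21876 in myl7:EGFP+, or 0.596% and 1.03%. The group ranges overlapped. The malat1 gene alone held 22.2% and 38.2% of these sums in tp1:EGFP+, and 21.8% and 56.1% in myl7:EGFP+. Without the 2 genes of highest value, malat1 and pln, the shares were 0.346% and 0.262% in tp1:EGFP+ and 0.364% and 0.234% in myl7:EGFP+. A value above 0 was found for 87 and 80 of the 90 genes in tp1:EGFP+ and for 89 and 83 in myl7:EGFP+. Over all 18105 genes, the counts were 12558 and 11516 in tp1:EGFP+ and 14281 and 12417 in myl7:EGFP+. The number of sorted cells, 2000 in tp1:EGFP+ and 7000 in myl7:EGFP+, went with the group. Lower input and the group therefore cannot be told apart. The gene bodies were short, with a median span of 7.11 kb against 18.4 kb for the tested protein-coding genes. Across the 90 genes, Pearson's r of log2(value + 1) was 0.892 between the tp1:EGFP+ libraries, 0.851 between the myl7:EGFP+ libraries and 0.352 to 0.464 between libraries of different groups. These are descriptions across genes of the same libraries, and over all tested genes the values were 0.942, 0.932 and 0.503 to 0.568.

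Most of the names in the file are clone names. Of the 90 identifiers, 66 matched the reference name table, 55 of them to a further clone name and 11 to another name. Among these 11, CR383676.2 is malat1, CR356236.1 is linc-mir30e-2, CU138533.1 has a numbered long noncoding RNA name and oip5-as1 keeps its own. The other 7 carry names of protein-coding genes in the file or in the reference table. These are pln (named pln1 in the reference table), which encodes phospholamban, an inhibitor of the calcium pump of the sarcoplasmic reticulum, mhc1zda, a class I histocompatibility gene, CABZ01083943.1 (kif1ca), CABZ01088109.1 (scaf8), CABZ01074913.1 (ddx41), CU467961.1 (mast4) and CU681842.1 (tob2). Their noncoding biotype is the file's label, and whether their transcripts are noncoding was not tested. No sequence is shown because no sequence of these genes was used here.

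For the 3 genes of highest value the difference between the groups did not pass the test. The malat1 gene (CR383676.2, ENSDARG00000099970, lincRNA, chromosome 14, 45631236 to 45638712, minus strand, GRCz11) had values of 2171 and 5862 in tp1:EGFP+ and 2017 and 12265 in myl7:EGFP+. Both replicate 2 libraries were above both replicate 1 libraries, and the groups overlapped. Its log2 difference, on the log2(value + 1) scale used throughout, was -0.48 ± 1.30 (SE, n = 2 per group; limma adjusted p = 0.817), which was 0.11 within replicate 1 and -1.06 within replicate 2. For pln (ENSDARG00000069404, chromosome 20, 41911214 to 41926484) the values were 1848 and 4134 in tp1:EGFP+ and 1591 and 4632 in myl7:EGFP+, with a log2 difference of 0.03 ± 0.89 (limma adjusted p = 0.987). It showed the same split by replicate number. The sign of the malat1 difference turned to 0.82 without myl7:EGFP+ replicate 2, so no direction is given for either gene.

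The third gene by value, oip5-as1 (ENSDARG00000093456, lincRNA, chromosome 13, 33261131 to 33301170), had 747 and 453 in tp1:EGFP+ and 1000 and 871 in myl7:EGFP+. Both tp1:EGFP+ libraries were below both myl7:EGFP+ libraries, but the log2 difference of -0.68 ± 0.38 did not pass (limma adjusted p = 0.227). Its name comes from oip5, a centromere assembly gene beside it, which was under the filter at 1 and 0 in tp1:EGFP+ and 9 and 6 in myl7:EGFP+. The microRNA host gene linc-mir30e-2 had 24 and 27 in tp1:EGFP+ and 17 and 16 in myl7:EGFP+ and did not pass (limma adjusted p = 0.344). Of the other genes among the 8 of highest value, CABZ01072309.2 had 331 and 176 in tp1:EGFP+ and 308 and 118 in myl7:EGFP+, and its groups overlapped. BX322530.1 had 323 and 167 in tp1:EGFP+ and 151 and 109 in myl7:EGFP+, and CR753876.1 had 146 and 417 in tp1:EGFP+ and 57 and 109 in myl7:EGFP+. For both of these the tp1:EGFP+ libraries were above the myl7:EGFP+ libraries, but neither passed (limma adjusted p = 0.168 and 0.0997). The values of mhc1zda, which has a mean of 18.5, were 12 and 6 in tp1:EGFP+ and 40 and 16 in myl7:EGFP+ (limma adjusted p = 0.153).

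By centred log2 profile over the 4 libraries, the gene most like malat1 was pln, at a Euclidean distance of 0.93. It was followed by CR382370.2 at 1.69, with 60 and 75 in tp1:EGFP+ and 87 and 124 in myl7:EGFP+, and by CR376766.2 at 1.79, with 107 and 98 in tp1:EGFP+ and 115 and 177 in myl7:EGFP+. A split by replicate number was found in 14 of the 90 genes, 4 with both replicate 2 libraries above both replicate 1 libraries and 10 with both below. Over the 9921 tested genes 1194 were higher and 1247 lower in both replicate 2 libraries. Besides malat1 and pln, the genes higher in both replicate 2 libraries were BX901920.1, with 5 and 66 in tp1:EGFP+ and 3 and 47 in myl7:EGFP+, and BX571880.1, with 8 and 75 in tp1:EGFP+ and 2 and 31 in myl7:EGFP+, both named after their values were seen. In these 4 genes the libraries separated by replicate number and not by group.

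**Figure D1:**
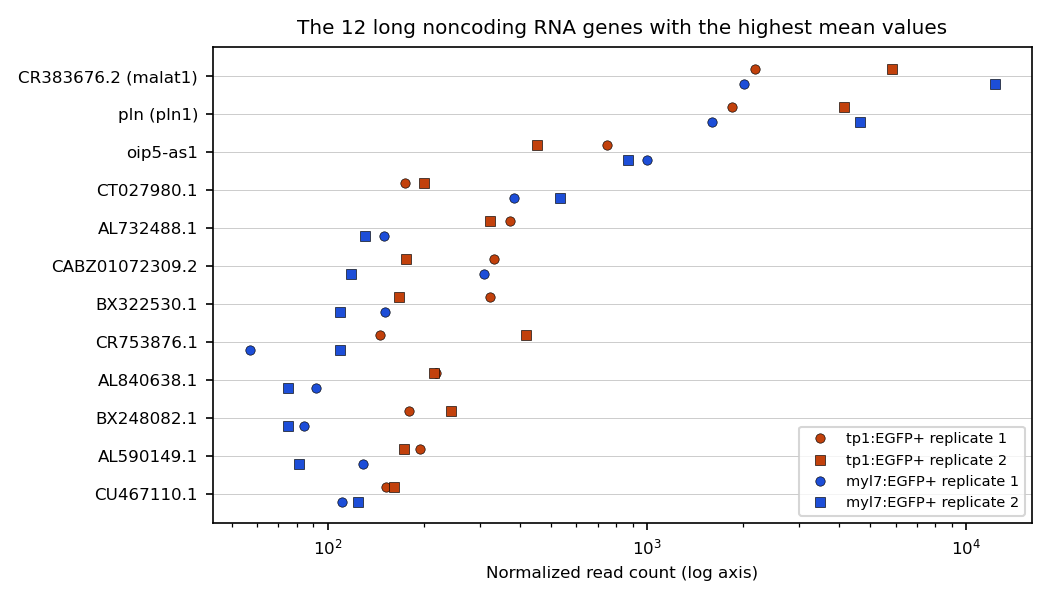
Normalized read counts (log axis) of the 12 genes with the highest means, 1 point per library, tp1:EGFP+ in orange above myl7:EGFP+ in blue, with circles for replicate 1 and squares for replicate 2. The groups overlap for malat1 and pln, where both squares lie to the right of both circles, and lie apart for CT027980.1 and AL732488.1.

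Between tp1:EGFP+ and myl7:EGFP+ cardiomyocytes, 32 of the 90 long noncoding RNA genes passed the test, 15 higher and 17 lower in tp1:EGFP+. By limma over all 9921 tested genes, with a Benjamini-Hochberg adjusted p under 0.05, 34.1% of all tested genes passed, 16.1% higher and 18.0% lower. The share among the 90 genes was 35.6%, near that background, so the count is no result about long noncoding RNAs. The median log2 difference of the 90 genes was 0.26, against 0.01 over all tested genes, and their mean was -0.06, against -0.09. Among lincRNA genes 11 rose and 12 fell of 71, and among antisense genes 4 rose and 5 fell of 19.

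The filter bears on these counts, since a gene that is high in a single group can reach a mean of 10 through that group alone. A mean of at least 10 in a single group was found for 32 of the 90, 14 in tp1:EGFP+ and 18 in myl7:EGFP+. Of the 58 genes with a mean of 10 in both groups, 7 rose and 6 fell, a share of 22.4% against 20.3% of all genes filtered in the same way. Of the other 32, 8 rose and 11 fell, 59.4% against 76.4%. By level, 12 of 31 genes with a mean of at least 50 passed, 38.7% against 26.9% of all tested genes of that level, and 20 of 59 with a mean of 10 to 50, 33.9% against 43.5%. With a mean of at least 20, 21 of 63 passed, 33.3% against 30.3%. The groups did not overlap for 37 genes higher and 33 lower in tp1:EGFP+, against 34.1% and 34.8% of all tested genes, and 38 of them did not pass. Among the 58 genes that did not pass, 22 had a log2 difference of at least 1 in size, and the SE of the difference ran from 0.24 to 1.66, so differences of 2-fold were not detectable in all of them. When the columns were scaled to a common total, 9 rose and 16 fell, while 1182 of all 9921 tested genes rose and 1434 fell, 26.4% in all.

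Leaving out a library ended most calls among the 90 genes and among all tested genes alike, so the loss is no trait of long noncoding RNA genes. Each such fit leaves 1 library in a group, which is assumed to vary like the other group. Each of the 32 differences kept its sign in every alternative fit that held the gene. For the fits without a library this was fixed in advance. The groups did not overlap for any of the 32, so leaving out a library could not turn a sign. The kept signs are therefore no sign of stable differences.

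**Figure D2:**
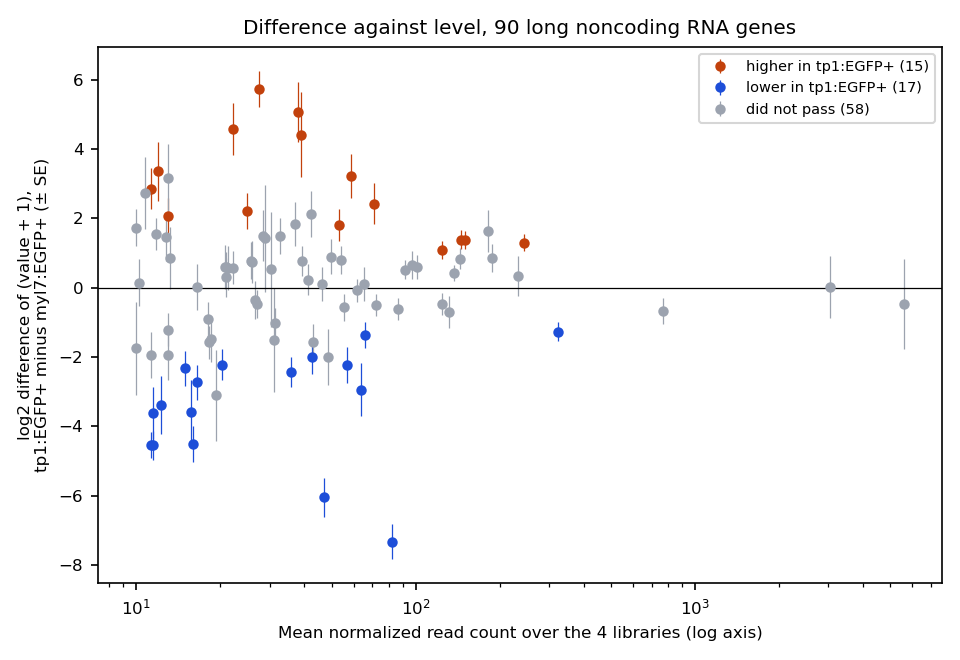
Difference between the groups on the log2(value + 1) scale, tp1:EGFP+ minus myl7:EGFP+, against the mean normalized read count (log axis) for the 90 genes, with bars for the SE of the difference. The 15 genes higher and 17 lower in tp1:EGFP+ lie mostly under a mean of 100, and the 2 genes above 1000, malat1 and pln, lie near 0 with wide bars.

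Among the genes that rose, 4 had values of 75 or more in every library. AL732488.1 (lincRNA, chromosome 12, 28937092 to 28946150) had 373 and 322 in tp1:EGFP+ and 150 and 131 in myl7:EGFP+, that is 347.5 ± 36.1 against 140.5 ± 13.4 (SD, n = 2), a log2 difference of 1.30 ± 0.24 (limma adjusted p = 0.0155). The lincRNA gene AL840638.1 had 218 and 215 in tp1:EGFP+ and 92 and 75 in myl7:EGFP+, a log2 difference of 1.37. For both genes the tp1:EGFP+ libraries lay close together and well above myl7:EGFP+. The antisense gene BX248082.1 had 179 and 244 in tp1:EGFP+ and 84 and 75 in myl7:EGFP+ (log2 1.39), and the lincRNA gene BX936337.1 had 180 and 158 in tp1:EGFP+ and 83 and 75 in myl7:EGFP+ (log2 1.09). The smallest change that passed among the 90 genes was that of BX936337.1, which overlaps the coding gene SENP7 on the same strand. Scaled to a common total, AL732488.1 and BX936337.1 no longer passed (limma adjusted p = 0.0596 and 0.12), and without 1 library AL732488.1 did not pass in any of the 4 fits (limma adjusted p of 0.1 to 0.128).

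The 10 largest rises were in genes with values of at most 28 in myl7:EGFP+. They include all 8 rises in genes with a mean of 10 in tp1:EGFP+ alone. Such genes entered the set through the group where they were high. Of all tested genes with a mean of 10 in 1 group, 76.4% passed. AL929243.1 (antisense, chromosome 6, 11815638 to 11830250) had 74 and 36 in tp1:EGFP+, and each myl7:EGFP+ library listed it at 0 (limma adjusted p = 0.00238). It was the 1 gene of the 90 for which this held. The lincRNA gene BX005396.4 (chromosome 7, 43466635 to 43468412) had 65 and 83 in tp1:EGFP+ and 4 and 0 in myl7:EGFP+, a log2 difference of 5.06 ± 0.87 (limma adjusted p = 0.013). BX323060.3, a lincRNA gene also on chromosome 7, had 27 and 60 in tp1:EGFP+ and 2 and 0 in myl7:EGFP+, and the antisense gene CU464124.1 had 94 and 51 in tp1:EGFP+ and 10 and 0 in myl7:EGFP+. In each of these 4 genes a tp1:EGFP+ value of at least 27 stood against a myl7:EGFP+ value of at most 10. CU638870.1, a lincRNA gene on chromosome 16, had 140 and 72 in tp1:EGFP+ and 16 and 6 in myl7:EGFP+, a log2 difference of 3.22 ± 0.64 (limma adjusted p = 0.0192). BX649307.1, an antisense gene on chromosome 4, had 72 and 170 in tp1:EGFP+ and 14 and 28 in myl7:EGFP+. The other 4, at log2 differences of 2.07 to 3.36, were BX640522.2, AL929210.2, CABZ01044746.1 and CU856520.1, and none of them exceeded 45 in any library. The lincRNA gene BX322618.1 on chromosome 20 also rose, with 62 and 104 in tp1:EGFP+ and 18 and 28 in myl7:EGFP+ (limma adjusted p = 0.0395).

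Of the 10 largest falls, all but that of CABZ01083943.1 were in genes with a mean under 10 in tp1:EGFP+. Those genes, too, reached the filter through 1 group alone. The largest fall was that of CABZ01070747.1 (ENSDARG00000117546, lincRNA, chromosome 10, 1982550 to 1991468), which had no entry in the reference name table. Neither tp1:EGFP+ library had a value above 0, and the myl7:EGFP+ libraries had 209 and 121 (limma adjusted p = 0.00213). Its nearest coding gene, tdgf1, a Nodal co-receptor gene, was at 0 in all 4 libraries. The antisense gene CR356233.1 (chromosome 4, 6416278 to 6508631) had 1 and 0 in tp1:EGFP+ and 106 and 81 in myl7:EGFP+, a log2 difference of -6.05 ± 0.55 (limma adjusted p = 0.00244). It overlaps 85.6 kb of foxp2, a forkhead transcription factor gene, whose own values were 0 and 0 in tp1:EGFP+ and 23 and 9 in myl7:EGFP+, under the filter. Both genes were thus seen in myl7:EGFP+ and not, or at a value of 1, in tp1:EGFP+. As fewer cells went into tp1:EGFP+, a gene absent there and a gene missed at lower input cannot be told apart. The lincRNA gene CABZ01084575.1 had 0 and 0 in tp1:EGFP+, against 26 and 19 in myl7:EGFP+, and its call was lost in 1 of the 4 fits without a library.

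Of the other 7 among the 10 largest falls, BX248324.1, BX088688.1, CU694532.1, FO704797.1 and CABZ01083943.1 are given with their neighbours below. CU138533.1, a lincRNA gene on chromosome 3, had 5 and 0 in tp1:EGFP+ and 33 and 25 in myl7:EGFP+ (log2 -3.60 ± 0.93, limma adjusted p = 0.04). It lies within snn, the stannin gene, on the opposite strand, which was at 0 and 0 in tp1:EGFP+ and 1 and 0 in myl7:EGFP+. CABZ01117607.1 had 4 and 0 in tp1:EGFP+ and 20 and 25 in myl7:EGFP+. Smaller falls were those of AL831726.3, with 12 and 9 in tp1:EGFP+ and 57 and 65 in myl7:EGFP+, and of BX005454.1, with 6 and 3 in tp1:EGFP+ and 26 and 25 in myl7:EGFP+. The fall with the highest values was that of CT027980.1 (lincRNA, chromosome 13, 7346601 to 7347745), with 174 and 200 in tp1:EGFP+ and 382 and 535 in myl7:EGFP+, that is 187 ± 18.4 against 458.5 ± 108 (SD, n = 2), a log2 difference of -1.27 ± 0.28 (limma adjusted p = 0.0257). The groups did not overlap, and the log2 difference was -1.13 within replicate 1 and -1.42 within replicate 2. It did not pass without the trend option (limma adjusted p = 0.0541) or in any of the 4 fits without a library.

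**Figure D3:**
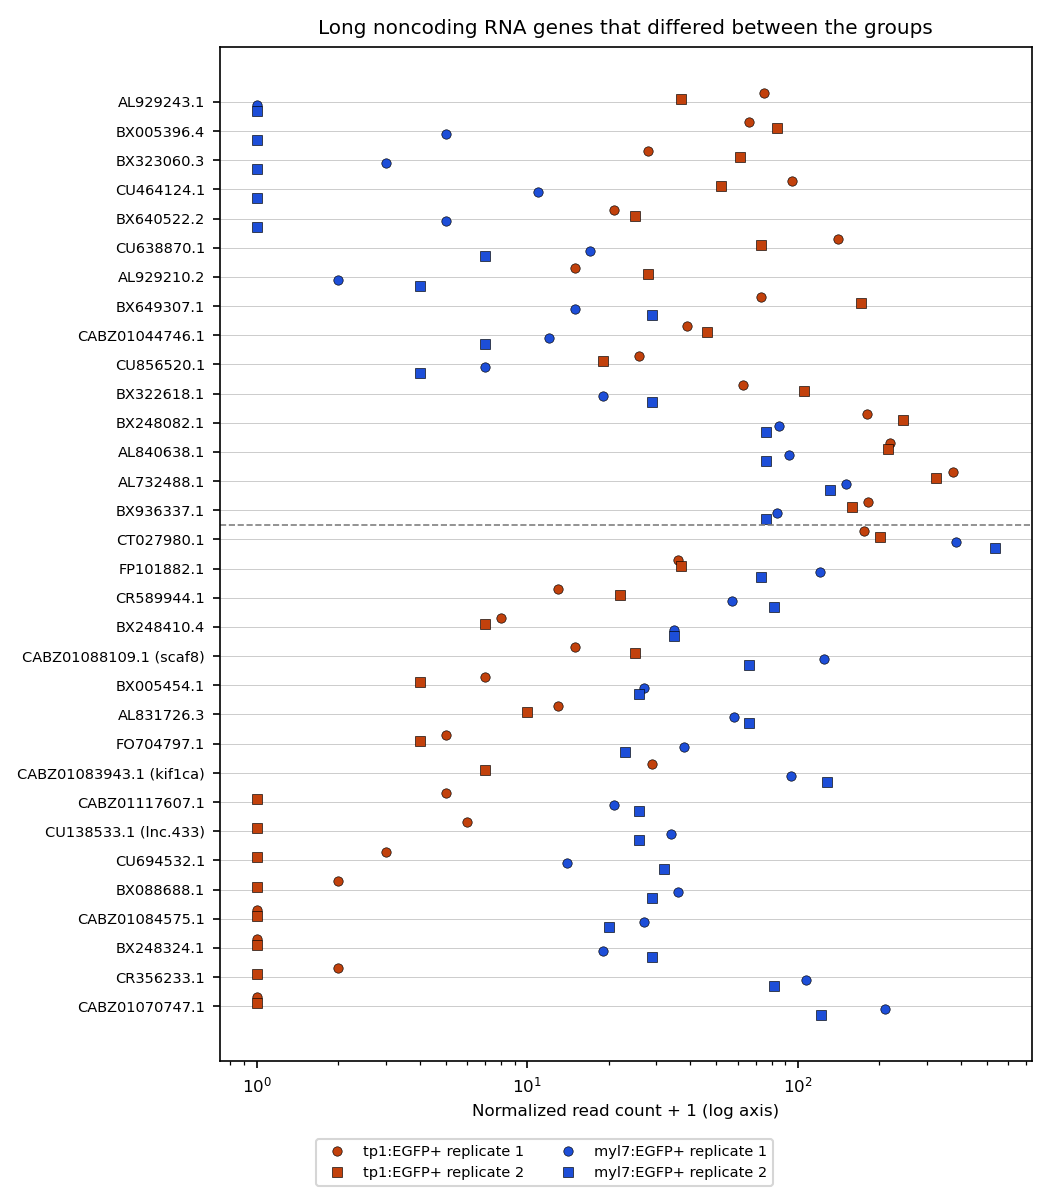
Normalized read count + 1 (log axis) of the 32 genes that passed the test, ordered by their log2 difference, with the 15 higher in tp1:EGFP+ above the dashed line and the 17 lower below it, tp1:EGFP+ in orange and myl7:EGFP+ in blue. Points at 1 are libraries where the gene was listed at 0. AL929243.1 stands at 0 in myl7:EGFP+, and CABZ01070747.1, BX248324.1 and CABZ01084575.1 stand at 0 in tp1:EGFP+.

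Each gene was paired with the protein-coding gene whose start lay nearest on its chromosome, to describe whether long noncoding RNA genes and their neighbours differed together. The median distance between starts was 16.8 kb, against 19.2 kb for tested protein-coding genes and their own nearest coding gene. Of the 90 pairs, 43 were tandem on the same strand, 19 tail to tail, 13 head to head and 15 overlapping on opposite strands. The neighbour was itself tested in 54 pairs. In 8 pairs both genes passed, 6 in the same direction (5 lower and 1 higher in tp1:EGFP+) and 2 in opposite directions. Each of the 8 pairs holds at least 1 gene with a mean of 10 in a single group, so the filter bears on these directions too. Of 9758 protein-coding pairs both genes passed in 705, and 412 of these (58.4%) had the same direction. Over the 54 pairs, 31 (57.4%) had differences of the same sign, against 53.0% of 6106 protein-coding pairs. Pearson's r of the log2 differences was 0.28, against 0.11. It was 0.155 for the 39 lincRNA genes with a tested neighbour, near the protein-coding value, and 0.683 for the 15 such antisense genes. The 15 include BX248324.1 with sox11b and CU694532.1 with tap1, whose genes all reached the filter through myl7:EGFP+ alone. Their differences, from -4.55 to -3.61, weigh on this r. Over the 18 overlaps on opposite strands with a tested partner r was 0.502, and over protein-coding pairs overlapping on opposite strands 0.131. With starts within 10 kb, 9 of 19 tested pairs (47.4%) had the same sign, against 51.1% of such protein-coding pairs. These are descriptions with no test. The genes of a pair share their libraries and, where they overlap, may share reads. With the nearest neighbour chosen among tested coding genes only, 7 pairs had the same and 7 the opposite direction.

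The closest pair that fell together was BX248324.1 (antisense, chromosome 20, 30031578 to 30084113) with sox11b, a SoxC transcription factor gene. Their starts lie 1050 bases apart, and the overlap of 2.70 kb is the whole of sox11b, which lies inside BX248324.1. BX248324.1 had 0 and 0 in tp1:EGFP+, against 18 and 28 in myl7:EGFP+ (limma adjusted p = 0.00236). For sox11b the values were 3 and 0 in tp1:EGFP+ and 63 and 25 in myl7:EGFP+, a log2 difference of -4.35 ± 0.87 (limma adjusted p = 0.0195). The counting of strand is not given in the sources used here, so reads of the 2 genes in the shared part cannot be told apart.

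On chromosome 16, the antisense gene CU694532.1 (48671460 to 48674618) fell, with 2 and 0 in tp1:EGFP+ and 13 and 31 in myl7:EGFP+. Its neighbour tap1, which encodes part of the peptide transporter for class I antigen presentation, had 0 and 3 in tp1:EGFP+ and 33 and 28 in myl7:EGFP+. Both genes were under 5 in tp1:EGFP+ and above 10 in myl7:EGFP+. The gene that CU694532.1 overlaps on the opposite strand, over 2.48 kb, is notchl and not tap1. Under the filter, notchl had 3 and 3 in tp1:EGFP+ and 0 and 0 in myl7:EGFP+. At 2.98 per read, a value of 3 in tp1:EGFP+ replicate 2 is about 1 read, so no direction is given for notchl. FO704797.1, a lincRNA gene on chromosome 17, had 4 and 3 in tp1:EGFP+ and 37 and 22 in myl7:EGFP+, and the immediate early transcription factor gene egr2a, with its start 44895 bases away, had 29 and 18 in tp1:EGFP+ and 121 and 62 in myl7:EGFP+. The log2 differences were -2.72 ± 0.50 and -1.88 ± 0.50 (limma adjusted p = 0.0157 and 0.0438), so this pair fell together at a longer distance. CABZ01088109.1, the identifier that the reference table names scaf8, had 14 and 24 in tp1:EGFP+ and 124 and 65 in myl7:EGFP+, and its neighbour hs1bp3 had 1 and 0 in tp1:EGFP+ and 94 and 81 in myl7:EGFP+. BX248410.4 on chromosome 4 had 7 and 6 in tp1:EGFP+ and 34 and 34 in myl7:EGFP+, and the coding gene beside it, ENSDARG00000055245, had 9 and 12 in tp1:EGFP+ and 57 and 34 in myl7:EGFP+. In these pairs neither gene's groups overlapped.

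A single pair rose together. BX936337.1 on chromosome 9 and si:dkey-100n23.5, whose starts lie 2934 bases apart on the same strand, differed by log2 1.09 ± 0.25 and 4.80 ± 0.73 (limma adjusted p = 0.0282 and 0.00934). The coding gene had 92 and 116 in tp1:EGFP+ and 1 and 6 in myl7:EGFP+, a wider gap than that of the lincRNA gene. BX936337.1 also overlaps the coding gene SENP7 on the same strand, which was not among the genes that passed. Reads of BX936337.1 and SENP7 in the shared part cannot be told apart.

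In 2 pairs the genes differed in opposite directions. BX088688.1 (lincRNA, chromosome 20, 22179916 to 22180508) had 1 and 0 in tp1:EGFP+ and 35 and 28 in myl7:EGFP+, a log2 difference of -4.51 ± 0.52 (limma adjusted p = 0.00437). The gene tmem165, which encodes a Golgi ion transporter and lies tail to tail with it at 6381 bases between starts, had 246 and 238 in tp1:EGFP+ and 39 and 22 in myl7:EGFP+ and rose (limma adjusted p = 0.00502). The ranges of both genes were thus apart between the groups, in reverse order. CABZ01083943.1, which the reference table names kif1ca, had 28 and 6 in tp1:EGFP+ and 93 and 127 in myl7:EGFP+. The kinesin gene KIF1C beside it had 21 and 21 in tp1:EGFP+ and 4 and 6 in myl7:EGFP+. They have like names and lie in tandem on the same strand, with starts 22316 bases apart. Whether they are parts of the same gene was not tested. The log2 differences were -2.94 ± 0.76 and 1.89 ± 0.46 (limma adjusted p = 0.0399 and 0.0335).

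Beside 3 lincRNA genes that did not pass, the nearest coding gene did. Each of these 3 coding genes reached the filter through 1 group alone. Of all tested genes with a mean of 10 in 1 group, 76.4% passed. Next to BX465862.4, at 31 and 9 in tp1:EGFP+ and 5 and 6 in myl7:EGFP+, the RhoA exchange factor gene net1 had 42 and 30 in tp1:EGFP+ and was at 0 and 0 in myl7:EGFP+. Next to CR753876.1 the ubiquitin ligase gene rnf19b had 19 and 27 in tp1:EGFP+ and 2 and 0 in myl7:EGFP+, so both genes were higher in each tp1:EGFP+ library than in either myl7:EGFP+ library. Next to BX248418.1, whose groups overlapped, ankrd6b had 0 and 0 in tp1:EGFP+ and 46 and 22 in myl7:EGFP+ (limma adjusted p = 0.00213 for net1, 0.0135 for rnf19b and 0.003 for ankrd6b). The lincRNA gene FP101882.1 fell, with 35 and 36 in tp1:EGFP+ and 120 and 72 in myl7:EGFP+ (limma adjusted p = 0.0499, near the threshold). It lies head to head with the transcriptional repressor gene bcl6aa, which had 84 and 42 in tp1:EGFP+ and 38 and 25 in myl7:EGFP+ and did not pass.

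**Figure D4:**
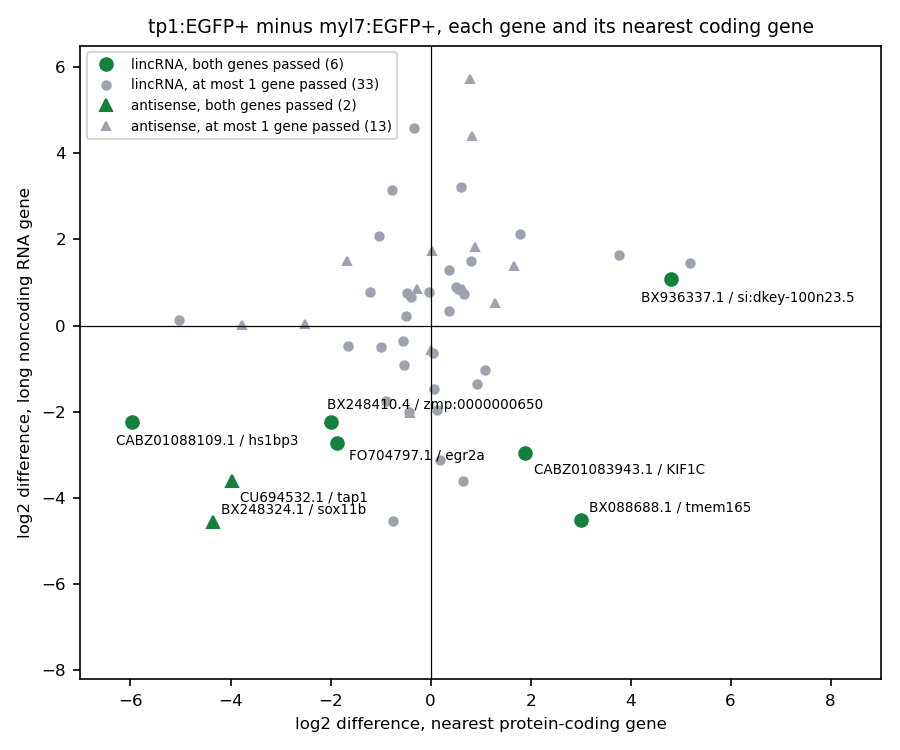
Log2 difference, tp1:EGFP+ minus myl7:EGFP+, of each long noncoding RNA gene (vertical) and of its nearest protein-coding gene (horizontal) for the 54 pairs in which both were tested. Green marks the 8 pairs in which both genes passed, of which 5 lie in the lower left, 1 in the upper right and 2 in the lower right.

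**Figure D5:**
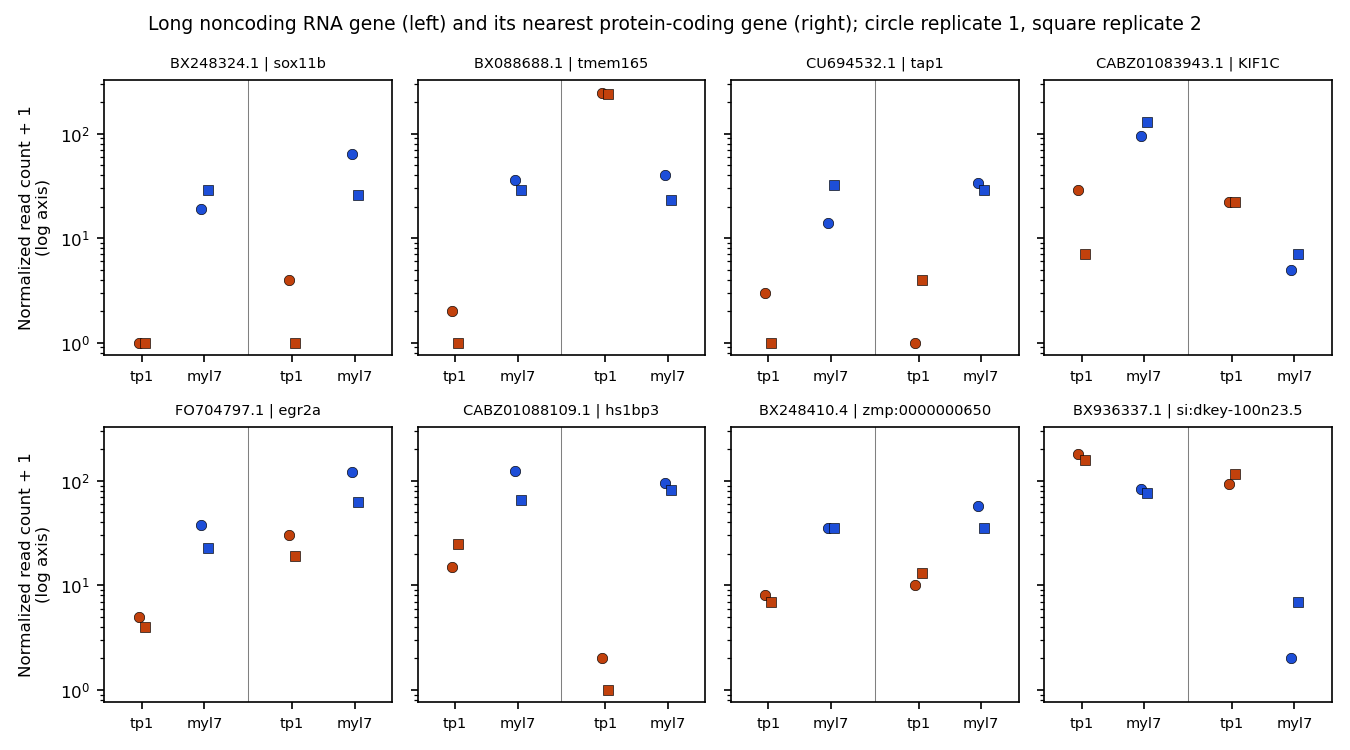
Normalized read count + 1 (log axis) in each library for the 8 pairs in which both genes passed, the long noncoding RNA gene on the left and its nearest protein-coding gene on the right of each panel, tp1:EGFP+ in orange and myl7:EGFP+ in blue, circles for replicate 1 and squares for replicate 2. The tmem165 and KIF1C panels show opposite orders of the groups.

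Genes that overlap a coding gene on the other strand numbered 21, 18 antisense and 3 lincRNA, in 25 overlaps. Their reads cannot be told from those of the partner without strand. Of the 18 overlaps whose partner was tested, 11 had differences of the same sign and 7 of opposite sign, and in 1, BX248324.1 with sox11b, both genes passed. In 5 overlaps the long noncoding RNA gene passed and its tested partner did not. AL929243.1, at 74 and 36 in tp1:EGFP+ and 0 and 0 in myl7:EGFP+, shares 0.384 kb with baz2ba, a bromodomain gene, which had 377 and 319 in tp1:EGFP+ and 232 and 171 in myl7:EGFP+ (limma adjusted p = 0.0827 for baz2ba). CU464124.1 lies within chd9, a chromodomain helicase gene, which had 325 and 250 in tp1:EGFP+ and 167 and 155 in myl7:EGFP+ (limma adjusted p = 0.0631). For BX248082.1 the partner was ankib1b, a ubiquitin ligase gene, at 223 and 128 in tp1:EGFP+ and 75 and 37 in myl7:EGFP+ (limma adjusted p = 0.0531 for ankib1b). In these 3 overlaps the partner, too, was higher in each tp1:EGFP+ library than in either myl7:EGFP+ library. CR589944.1 fell, with 12 and 21 in tp1:EGFP+ and 56 and 81 in myl7:EGFP+, and the cytokine feedback gene cishb that it overlaps had 151 and 104 in tp1:EGFP+ and 181 and 152 in myl7:EGFP+ (limma adjusted p = 0.348 for cishb). CR356233.1 also shares 0.137 kb with MDFIC, which had 35 and 21 in tp1:EGFP+ and 76 and 59 in myl7:EGFP+ (limma adjusted p = 0.0797 for MDFIC).

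In 3 overlaps the partner passed and the antisense gene did not. The nuclear receptor gene nr4a3 fell, with 432 and 215 in tp1:EGFP+ and 1499 and 2027 in myl7:EGFP+ (limma adjusted p = 0.015), while CR524821.1 across it had 26 and 9 in tp1:EGFP+ and 19 and 12 in myl7:EGFP+. The diacylglycerol kinase gene dgkza fell and scrn2 rose (limma adjusted p = 0.0418 and 0.0395), and their partners CR382325.1, at 31 and 51 in tp1:EGFP+ and 7 and 25 in myl7:EGFP+, and BX901920.1 did not pass. AL929435.1 lies inside the immediate early gene fosab and had 53 and 36 in tp1:EGFP+ and 55 and 78 in myl7:EGFP+. The values of fosab were 755 and 2602 in tp1:EGFP+ and 586 and 3277 in myl7:EGFP+, and neither gene passed.

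Of the 7 identifiers with coding gene names, 0 rose and 2 fell, the kif1ca and scaf8 identifiers given above. That is 28.6%, against 34.1% of all tested genes. The mast4 identifier CU467961.1 had 28 and 18 in tp1:EGFP+ and 6 and 0 in myl7:EGFP+ (limma adjusted p = 0.0686), and the tob2 identifier CU681842.1 had 4 and 3 in tp1:EGFP+ and 29 and 9 in myl7:EGFP+ (limma adjusted p = 0.0806). Neither passed, although the groups did not overlap. Without these 7, 15 genes rose and 15 fell, a share of 36.1%, so neither count is a result about these genes.

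Genes that process or bind long noncoding RNAs were described beside them, from a list of 47 symbols of which 35 were tested. In this list 2 rose, 10 fell and 23 did not pass, a share of 34.3% passing against 34.1% of all tested genes. By direction, 16.1% of all tested genes rose and 18.0% fell. The median log2 difference of the list was -0.33, against 0.01 over all tested genes, and the direction of the list as a set was not tested. The paraspeckle protein gene sfpq had 284 and 262 in tp1:EGFP+ and 483 and 622 in myl7:EGFP+ (limma adjusted p = 0.0425), and the nuclear speckle gene srrm2 had 62 and 63 in tp1:EGFP+ and 149 and 112 in myl7:EGFP+. The splicing factor genes srsf1a and srsf2a, the nuclear poly(A)-binding protein gene pabpn1, hnrnpua, the polycomb genes ezh2 and jarid2b, the exosome helicase gene mtrex and the cap-binding gene ncbp3 were the others that fell. The genes that rose were dis3l and srrt (limma adjusted p = 0.00495 and 0.00502). The gene dis3l encodes a ribonuclease of the cytoplasmic exosome and had 70 and 60 in tp1:EGFP+ and 1 and 3 in myl7:EGFP+. The product of srrt links capped transcripts to the exosome. Values of srrt were 210 and 176 in tp1:EGFP+ and 14 and 25 in myl7:EGFP+. Among the genes of the list that passed, dis3l, mtrex, ncbp3 and jarid2b reached the filter through 1 group alone. Of all tested genes with a mean of 10 in 1 group, 76.4% passed. The core exosome subunits exosc1 to exosc5 and exosc7 to exosc9 did not pass, nor did exosc10, a nuclease bound to the core. For dis3, the nuclear ribonuclease of the complex, the values were 67 and 66 in tp1:EGFP+ and 70 and 75 in myl7:EGFP+.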

How the data were processed

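RNA-seq was analysed in 4 libraries, 2 per group. The submitters' processing notes name STAR 2.6.1d, Trimmomatic 0.39, DESeq2 1.26.0, Subread 1.6.5 and featureCounts, and as builds danRer11 and GRCz11. What each tool did, the annotation release and the handling of strand were not given in the sources used here. Deposited values, of unit score, are read counts that the authors normalized between libraries and rounded to whole numbers. As raw counts were not used here, no count model was fitted. Ranks and medians of value are those of normalized read counts, which also depend on transcript length. Exon lengths were not used here, so they do not order the genes by abundance. The cDNA of 2000 to 7000 sorted cells was amplified before sequencing, per the labels' protocols, and no interval for counting error is given.

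Log2(value + 1) was fitted with limma 3.58.1 (R 4.3.3, trend option) over the 9921 genes with a mean of at least 10, and p-values were adjusted by Benjamini-Hochberg over these genes. Differences are tp1:EGFP+ minus myl7:EGFP+, and the scale understates changes of low genes. The fit and the estimate of the value of a read were tested on simulated data. Distances and overlaps used the start, end and strand columns of the file. Names came from the file and, by Ensembl ID, from a reference name table. Tables were made with Python 3.11.15, pandas 2.3.3 and numpy 2.4.6, and plots with matplotlib 3.10.9. No promoter or transcript sequence was used here.

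The members, lists and rules were chosen with earlier results of these data known. The genes named were the 8 of highest value, the 10 largest rises and falls with separate groups, pairs within 10 kb in which both genes passed, members whose symbol is no clone name, the genes beside the threshold and the 3 most like malat1. Further genes are named to make a count or an overlap clear and were chosen after their values were seen. Alternatives were other pseudocounts, filters, scalings and fits, each library left out, a replicate block, and other choices of members and neighbours.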

Additional observations from a re-analysis of the deposited data

How the results depend on the processing

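The 32 calls among the 90 genes stayed within 1.5 times under several alternatives, at 24 to 39 calls. These were other pseudocounts, no filter on low values, other scalings, no trend, a robust fit and a required 2-fold change. Over all 9921 tested genes the calls ran from 2616 with a common total to 3719 with a pseudocount of 10. With no filter on low values, 4211 of 16374 genes passed. With the replicate number as a block, 53 of the 90 genes and 5721 of all tested genes passed, against 32 and 3382 without it. Among the named genes, oip5-as1, BX322530.1, CR753876.1, mhc1zda, CU466278.1 and CR382370.2 passed with the block and not without it, and CU466278.1 also passed with quantile scaling. The labels do not say that the numbers pair the libraries, and across genes the deviations at the 2 numbers had r = 0.442 between the groups. Among genes with a mean of at least 50, refitted alone, 11 of 31 members (35.5%) and 1343 of 5614 genes (23.9%) passed. With the adjustment kept, 21 of 63 members with a mean of at least 20 passed (33.3%, against 30.3% of all such genes), 12 of 31 with a mean of at least 50 (38.7%, against 26.9%) and 9 of 19 antisense genes (47.4%, against 34.1% of all tested genes). These sets are smaller by construction. Without 1 library, 1 to 7 of the 90 genes and 401 to 627 of all genes passed. Such fits leave 1 library in a group, which is assumed to vary like the other group. Without genes over a coding gene on the other strand, an alternative chosen after seeing the data, 22 of 69 passed (31.9%, against 34.1%). The pairs that moved together numbered 4 to 7 under other choices of neighbour.

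Some differences that did not pass turned sign. Without 1 library, the malat1 difference ran from -1.78 to 0.82, that of pln from -0.74 to 0.80, that of CABZ01072309.2 from -0.35 to 1.03, that of BX640481.1 from -3.75 to 0.25 and that of BX248418.1 from -0.50 to 0.78. That of pln was also -0.10 with a trimmed mean of M values and -0.00845 with quantile scaling. The cause was not tested. The trimmed mean of M values moved the median difference of all tested genes to -0.11, against 0.01 as deposited. The depth of replicate 2 limits what can be seen: a value of 10 is 3.36 reads in tp1:EGFP+ and 3.22 reads in myl7:EGFP+.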

Other observations

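Expressed long noncoding RNA genes lay on 22 of the 25 chromosomes in the file, with most on chromosomes 20 (10 genes), 16 (9 genes) and 7 (8 genes). In 2 cases a pair of these genes lay within 50 kb of each other. CU179758.1 and CT027980.1 lie 6.19 kb apart on the same strand of chromosome 13. CU179758.1 had 24 and 24 in tp1:EGFP+ and 26 and 9 in myl7:EGFP+ and did not pass, whereas CT027980.1 fell. BX005003.1 and BX005396.4 lie 42.7 kb apart on chromosome 7, and BX005003.1, at 32 and 18 in tp1:EGFP+ and 10 and 25 in myl7:EGFP+, did not pass, whereas BX005396.4 rose.

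Just inside the threshold were BX640481.1 and CU466278.1, with a mean of 10, and BX248418.1, with a mean of 10.25. BX640481.1 had 15 and 0 in tp1:EGFP+ and 13 and 12 in myl7:EGFP+. CU466278.1 had 11 and 21 in tp1:EGFP+ and 5 and 3 in myl7:EGFP+, and BX248418.1 had 16 and 6 in tp1:EGFP+ and 13 and 6 in myl7:EGFP+. Just outside, each with a mean of 9.75, were CR589876.1, CABZ01092746.1 and CR387996.1. CR589876.1 had 4 and 9 in tp1:EGFP+ and 7 and 19 in myl7:EGFP+. CR387996.1 had 22 and 6 in tp1:EGFP+ and 2 and 9 in myl7:EGFP+. CABZ01092746.1 had 2 and 0 in tp1:EGFP+ and 18 and 19 in myl7:EGFP+. Of the 554 lincRNA and antisense genes under the threshold, 144 were at 0 in all 4 libraries, and 47 had a mean of at least 10 in a single group, 23 in tp1:EGFP+ and 24 in myl7:EGFP+.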
